A study of Mus musculus with 10 samples.

Results

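The miRNAs described here are the mature arms of 5 mouse hairpins that lie in or beside imprinted genes outside the Dlk1-Dio3 and Sfmbt2 clusters: Mir335 at Mest, Mir483 at Igf2, Mir675 at H19, and Mir296 and Mir298 at Gnas. These 5 hairpins, of 1174 annotated ones searched, were chosen by locus, with their read counts in these libraries already known, so the levels below are a description and carry no independent support. A read counted for an arm when it was 18 to 26 nt long and its first 18 nt matched the hairpin exactly in sense, with up to 2 mismatches after that. All 10 arms of the 5 hairpins were detected, among 763 arms with at least 1 read. Levels are given as RPM, reads scaled to a library total of 1000000 mapped reads, and no read of the 5 hairpins matched another hairpin.

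Small RNA was sequenced from cells sorted on Day 6 from mouse embryoid bodies, in 5 groups of 2 biological replicates. Mouse primordial germ cell-like cells (mPGCLCs) and the other cells of the embryoid body (non-PGCLCs) came from E14, a 129/Ola line with no reporter, and from BG5, a line of mixed C57BL/6J, DBA and 129 background with a Blimp1-GFP reporter. SGET, a B6CBA and 129 line that carries both a Stella-GFP and an Esg1-tdTomato reporter, is represented by non-PGCLCs, and its mPGCLCs were not analysed here. All lines are male embryonic stem cell lines taken through epiblast-like cells with BMP4 among the cytokines, and the labels name no deletion or drug treatment in any group. The study's methods give a gate for each line (Ssea1 and Cd61 for E14, Ssea1 and Blimp1-GFP for BG5, Stella-GFP without Esg1-tdTomato for SGET), whereas the labels give the SGET gate for every sample. Each line is 1 line, so a difference between lines cannot be told apart from a difference between reporters, gates or strain backgrounds. Libraries held 7421061 to 14444567 reads, of which 14.97% to 34.5% were miRNA reads. In bulk samples, fewer cells of a type and less RNA per cell cannot be told apart.

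Imprinted genes are read from 1 parental allele, which is set by DNA methylation laid down in the parents' germ cells, and this methylation is erased as primordial germ cells mature. Mest and Igf2 are read from the paternal allele and H19 from the maternal allele, and all 3 are highly active in mesodermal and other embryonic tissue. A miRNA hairpin inside such a gene is usually cut from the host transcript, and the 5p and 3p strands of its stem can each be loaded into an Argonaute protein. Bases 2 to 8 of the loaded strand, the seed, pair with target mRNAs.

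Mir335 (chr6:30741299-30741396, plus strand, GRCm38) lies in an intron of Mest, an enzyme gene of the hydrolase fold. Mir483 (chr7:142654924-142654996, minus strand) lies in an intron of Igf2, the fetal growth factor, and of an overlapping gene, Gm49394. Mir675 (chr7:142577064-142577147, minus strand) lies in an exon of the non-coding RNA H19, a brake on fetal growth, 77776 nt from Mir483. Mir296 (chr2:174267047-174267125) and Mir298 (chr2:174267504-174267585) are 378 nt apart on the minus strand. Neither overlaps an annotated gene, and they lie 14112 and 13652 nt beyond the annotated 3′ end of Nespas, the antisense transcript of the Gnas locus. The mature sequences are from RefSeq on GRCm38.p6, where all 10 arms matched an entry, and are shown because the seeds show that these miRNAs form no family. Capitals mark the seed.
Mir335-5p: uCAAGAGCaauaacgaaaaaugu
Mir335-3p: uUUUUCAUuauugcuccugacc
Mir483-5p: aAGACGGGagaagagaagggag
Mir483-3p: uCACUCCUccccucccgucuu
Mir675-5p: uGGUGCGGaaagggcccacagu
Mir675-3p: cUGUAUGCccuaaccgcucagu
Mir296-5p: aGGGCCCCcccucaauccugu
Mir296-3p: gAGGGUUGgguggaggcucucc
Mir298-5p: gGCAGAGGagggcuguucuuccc
Mir298-3p: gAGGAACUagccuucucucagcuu
Each seed belonged to 1 entry in the RefSeq list of mature mouse miRNAs, so no arm shared its seed with another arm of the set or with any other listed miRNA.

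Mir335 and Mir483 were lower in mPGCLCs than in non-PGCLCs of both lines and highest in BG5 non-PGCLCs. There, Mir335-3p ranked 4 and Mir483-5p ranked 8 of 522 arms detected by mean RPM, against ranks of 51 and 145 of 547 in E14 mPGCLCs. The Gnas arms stayed within a narrower range, and Mir675 was near the limit of detection. Together the 5 hairpins gave 2271 to 2404 RPM in E14 mPGCLCs, 2690.2 to 3806 in BG5 mPGCLCs, 3741 to 4091 in E14 non-PGCLCs, 3609 to 4441 in SGET non-PGCLCs and 17347 to 29902 in BG5 non-PGCLCs.

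**Figure D1:**
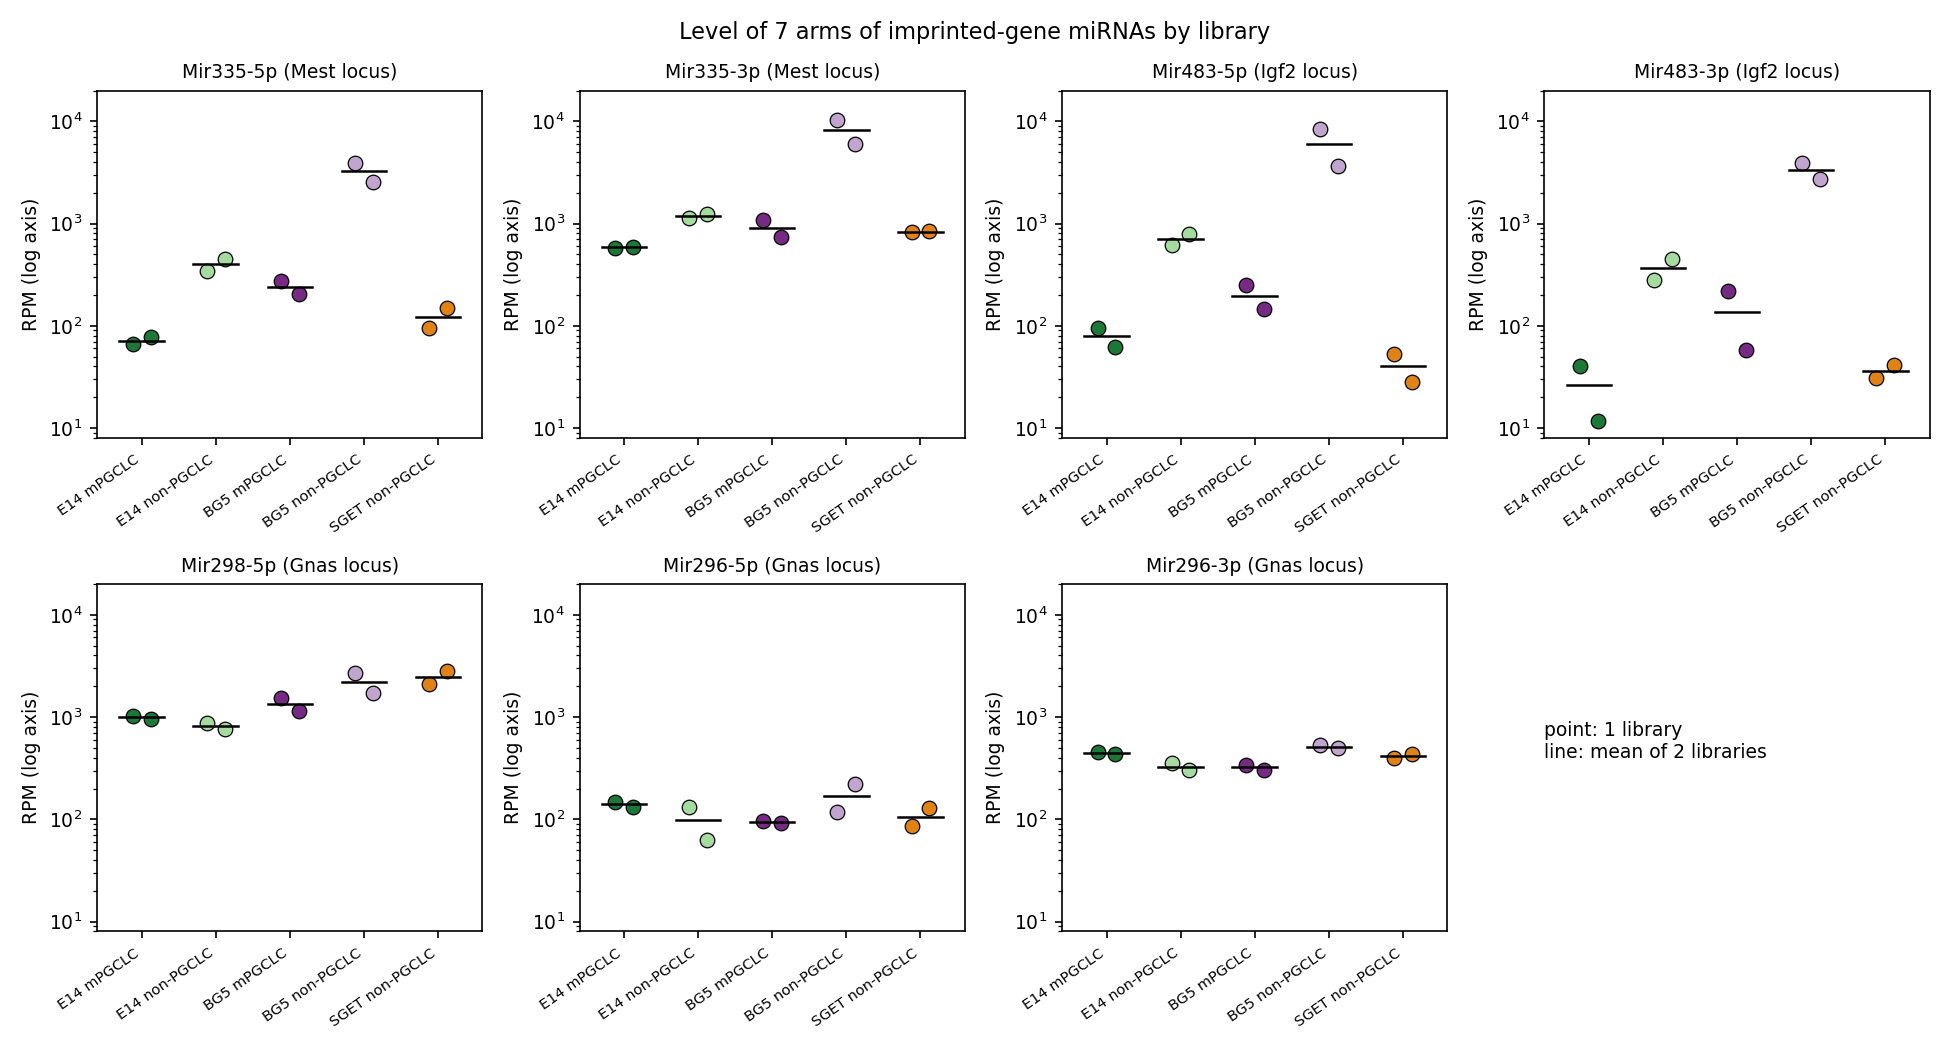
RPM (log axis) of the 7 arms with reads in every library, by group, with 1 point per library and a line at the mean of the 2 libraries. The Mir335 and Mir483 arms stand highest in BG5 non-PGCLCs, with Mir335-3p at 5969.8 and 10344 RPM, whereas Mir296-3p stays between 300.4 and 537 RPM in all groups.

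Mir335-3p, the main arm of the Mest hairpin, was at 580.5 and 588 RPM in the E14 mPGCLC libraries and at 1129 and 1252 in the E14 non-PGCLC libraries. In BG5 it was at 1079 and 739 RPM in mPGCLCs and at 10344 and 5969.8 in non-PGCLCs, and SGET non-PGCLCs held 821 and 849. BG5 non-PGCLCs were above all other libraries, followed by E14 non-PGCLCs, while BG5 mPGCLCs and SGET non-PGCLCs overlapped and E14 mPGCLCs were lowest. The other arm, Mir335-5p, was at 65.9 and 77.2 RPM in E14 mPGCLCs, 346 and 449.6 in E14 non-PGCLCs, 273 and 204 in BG5 mPGCLCs, 3919.8 and 2562 in BG5 non-PGCLCs, and 95.4 and 148 in SGET non-PGCLCs. By RPM, the 5 groups of Mir335-5p did not overlap, and their order was that of the 3p arm.

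Mir483-5p, the main arm of the Igf2 hairpin, spanned a wider range. It was at 96.1 and 62.5 RPM in E14 mPGCLCs, 613 and 789.8 in E14 non-PGCLCs, 249 and 146 in BG5 mPGCLCs, 8363 and 3626 in BG5 non-PGCLCs, and 53.5 and 28.2 in SGET non-PGCLCs. No group overlapped another, and SGET non-PGCLCs were lowest. Mir483-3p was at 40.7 and 11.7 RPM in E14 mPGCLCs, 282 and 454 in E14 non-PGCLCs, 217 and 57.4 in BG5 mPGCLCs, 3918 and 2737 in BG5 non-PGCLCs, and 30.8 and 41.3 in SGET non-PGCLCs. E14 mPGCLCs and SGET non-PGCLCs overlapped at the low end, and BG5 mPGCLCs, E14 non-PGCLCs and BG5 non-PGCLCs followed in that order without overlap. On group means of RPM, BG5 non-PGCLCs held 147-fold more Mir483-5p than SGET non-PGCLCs, a comparison given without a test. SGET non-PGCLC replicate 2 held only 276 reads of the arm, from 2 distinct sequences. The fold was 88.8 without BG5 non-PGCLC replicate 1 and 212 without SGET non-PGCLC replicate 1. For Mir483-3p the fold was 92.3. With TMM scaling, which sets the scale by the bulk of the miRNA arms, the folds were 94.1 and 63.9.

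The question of each comparison below is whether an arm differed between sorted cell types of a line, or between lines within a cell type. Fold changes are on the log2 scale from edgeR's quasi-likelihood test, with Benjamini-Hochberg adjusted p over all 561 arms that passed the filter on low counts. Of the 10 arms, 9 passed it, and Mir298-3p did not. The hairpins were chosen with these counts known, so the adjusted p-values describe the arms and carry no independent support. Within E14, 4 of the 9 were called lower in mPGCLCs and 0 higher, where 2.85% of all tested arms were called in either direction. Mir335-5p fell by 2.68 ± 0.38 (SE, adjusted p = 0.000251), Mir335-3p by 1.22 ± 0.25 (adjusted p = 0.0112), Mir483-5p by 3.34 ± 0.42 (adjusted p = 9.72e-05) and Mir483-3p by 4.00 ± 0.61 (adjusted p = 0.000571). The median over the 9 was -1.22, against 0 over all tested arms. The Mir335-3p call was lost with scaling by total reads (-1.03, adjusted p = 0.213), without E14 mPGCLC replicate 1 (-1.27, adjusted p = 0.0675), without E14 mPGCLC replicate 2 (-1.17, adjusted p = 0.0982) and without E14 non-PGCLC replicate 2 (-1.06, adjusted p = 0.112). The fall of Mir483-3p was 5.24 without E14 mPGCLC replicate 1 and 3.32 without E14 mPGCLC replicate 2, which hold 337 and 94 reads of the arm, and it stayed past the threshold in both. The Mir483-3p call was lost when the other groups were left out of the fit (-4.10, adjusted p = 0.0913).

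Within BG5, the same 4 arms were called lower in mPGCLCs and 0 of 9 higher, where 14.1% of all tested arms were called. Mir335-5p fell by 3.04 ± 0.38 (adjusted p = 1.13e-05), Mir335-3p by 2.44 ± 0.26 (adjusted p = 1.76e-06), Mir483-5p by 4.18 ± 0.44 (adjusted p = 1.28e-06) and Mir483-3p by 4.02 ± 0.61 (adjusted p = 9.07e-05). Without BG5 mPGCLC replicate 1 the change of Mir483-3p was -4.84, and without BG5 non-PGCLC replicate 1 that of Mir483-5p was -3.56. Both arms of Mir335 and Mir483 fell in both lines. Over E14 and BG5 together, 14.8% of all tested arms were called, and these 4 arms again made up the calls among the 9, with Mir335-3p the smallest at -1.83 ± 0.18 and Mir483-3p the largest at -4.01 ± 0.43 (-4.63 without E14 mPGCLC replicate 1).

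**Figure D2:**
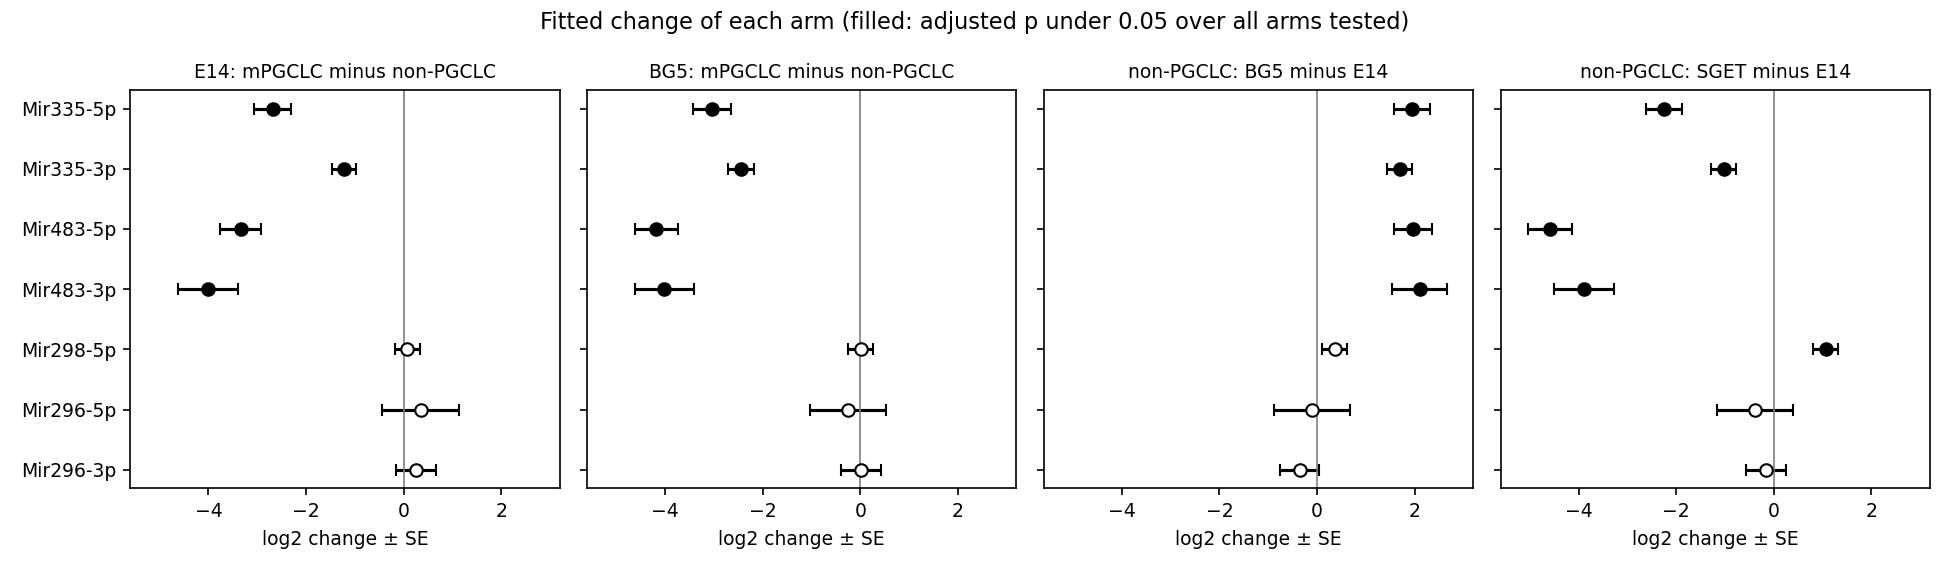
Log2 change with its standard error for 7 arms (rows) in 4 comparisons (panels), filled where the adjusted p over all 561 arms was under 0.05. The 4 arms of Mir335 and Mir483 lie left of 0 in both cell-type panels, right of 0 for BG5 against E14 non-PGCLCs and left of 0 for SGET against E14 non-PGCLCs.

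The difference between the 2 lines' cell-type effects was tested as an interaction. It passed the threshold for 0 of the 9 arms, where 5.7% of all tested arms were called. At an unadjusted p under 0.05 the count over all arms was 83, and Mir335-3p was the 1 member among them. Its change was larger in BG5 by 1.22 ± 0.36 on the log2 scale (unadjusted p = 0.00336, adjusted p = 0.0524), and the adjusted p was 0.000548 with DESeq2, 0.0109 with scaling by total reads, 0.0470 with reads of 20 to 24 nt, 0.0337 with the replicate number as a block and 0.0401 without BG5 non-PGCLC replicate 2. For Mir483-5p the difference was -0.84 ± 0.54 (adjusted p = 0.535), and for Mir483-3p it was -0.01 ± 0.79 (adjusted p = 0.9998), so its standard error leaves room for a difference of either sign. Over the alternative settings, the difference ran from -2.14 to -0.82 for Mir335-3p and from -1.78 to -0.20 for Mir483-5p, where a negative value is a larger fall in BG5.

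Lines also differed within a cell type. Among mPGCLCs, 2 of the 9 arms were called higher in BG5 than in E14, where 10.2% of all tested arms were called. Mir335-5p was higher by 1.59 ± 0.36 (adjusted p = 0.00645) and Mir483-3p by 2.10 ± 0.57 (adjusted p = 0.0216), while Mir483-5p, at 1.13 ± 0.39, had an adjusted p of 0.0902 (0.0432 with DESeq2 and 0.00586 with the replicate number as a block) and Mir335-3p, at 0.48 ± 0.25, of 0.378. The Mir483-3p call rests on libraries with 94 to 1787 reads of the arm. The change was 3.33 without E14 mPGCLC replicate 1, and the call was lost without E14 mPGCLC replicate 2 (1.41, adjusted p = 0.141), without BG5 mPGCLC replicate 1 (1.25, adjusted p = 0.271) and with only the mPGCLC groups in the fit (2.10, adjusted p = 0.155), and the Mir335-5p call was lost without E14 mPGCLC replicate 1 (1.54, adjusted p = 0.0605) or BG5 mPGCLC replicate 2 (1.52, adjusted p = 0.0577).

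Among non-PGCLCs, 4 of the 9 arms were called higher in BG5 than in E14, where 15.5% of all tested arms were called. Mir335-5p was higher by 1.95 ± 0.37 (adjusted p = 0.000946), Mir335-3p by 1.69 ± 0.26 (adjusted p = 0.000130), Mir483-5p by 1.97 ± 0.40 (adjusted p = 0.00172) and Mir483-3p by 2.11 ± 0.56 (adjusted p = 0.0149). Over the alternative settings described at the end, these changes ran from 1.65 to 3.03, 1.39 to 2.78, 1.48 to 3.09 and 1.75 to 3.18, in the same order. Against the same E14 libraries, SGET non-PGCLCs had 4 arms called lower and 1 higher of the 9, where 4.63% of all tested arms were called. Mir335-5p was lower (-2.25 ± 0.37, adjusted p = 0.00211), as were Mir335-3p (-1.02 ± 0.25, adjusted p = 0.0279), Mir483-5p (-4.59 ± 0.45, adjusted p = 8.24e-06) and Mir483-3p (-3.89 ± 0.61, adjusted p = 0.00149). The change of Mir483-5p was -5.26 without SGET replicate 1 and -4.00 without SGET replicate 2. The Mir335-3p call was lost with total reads as scaling (-0.51, adjusted p = 0.492), with only these groups in the fit (-0.89, adjusted p = 0.120), and without E14 non-PGCLC replicate 2 (-0.88, adjusted p = 0.198), SGET replicate 1 (-1.11, adjusted p = 0.0547) or SGET replicate 2 (-0.81, adjusted p = 0.394). The Mir335-5p call was lost with only these groups in the fit (-2.11, adjusted p = 0.0630).

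The scale of these changes depends on the normalisation. TMM gave factors of 1.86 and 1.26 to the BG5 non-PGCLC libraries and 0.791 and 0.715 to those of E14. With total reads as the scale, the median over all tested arms moved from 0.16 to 1.19 for BG5 against E14 non-PGCLCs and from -0.04 to -0.73 for mPGCLCs against non-PGCLCs in BG5. The falls of Mir335-3p and Mir483-5p in BG5 mPGCLCs were then -3.17 and -4.92, beyond that median as before. Higher calls were 47 of 79 in the BG5 cell-type comparison and 28 of 69 with total reads, 44 of 87 and 72 of 94 for BG5 against E14 non-PGCLCs, 10 of 26 and 16 of 24 for SGET against E14 non-PGCLCs, 22 of 32 and 14 of 31 for the interaction, 43 of 83 and 30 of 75 over both lines, and 3 of 16 and 0 of 8 for E14.

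The Gnas arms showed another order. Mir298-5p was at 1014 and 966 RPM in E14 mPGCLCs, 875 and 772 in E14 non-PGCLCs, 1549.98 and 1148 in BG5 mPGCLCs, 2704 and 1721 in BG5 non-PGCLCs, and 2123 and 2812 in SGET non-PGCLCs. By RPM, the last 2 groups overlapped and were above the others. Scaled to 1000000 miRNA reads instead, BG5 mPGCLCs were at 7134 and 7669, within the SGET non-PGCLC range of 7109 to 8652. BG5 non-PGCLCs were then at 8320 and 7984. On that scale Mir298-5p was lowest in E14, at 2944 and 3056 in mPGCLCs and 3800 and 4321 in non-PGCLCs. Its fitted change between cell types was 0.08 ± 0.25 in E14 and 0.01 ± 0.25 in BG5 (both adjusted p = 1). In BG5 this small value became -0.71 ± 0.38 (adjusted p = 0.290) with total reads as the scale.

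Mir298-5p was the arm called higher in SGET than in E14 non-PGCLCs, by 1.07 ± 0.26 (adjusted p = 0.0253). The call was lost without E14 non-PGCLC replicate 1 (1.08, adjusted p = 0.170), E14 non-PGCLC replicate 2 (1.04, adjusted p = 0.169), SGET replicate 2 (1.11, adjusted p = 0.102), BG5 mPGCLC replicate 1 (1.06, adjusted p = 0.0531) or BG5 mPGCLC replicate 2 (1.06, adjusted p = 0.0523). Against E14 non-PGCLCs, the BG5 libraries had a fitted change of 0.37 ± 0.26 (adjusted p = 0.385), which became 1.43 (adjusted p = 0.00830) with total reads as the scale and 0.49 (adjusted p = 0.0469) with DESeq2.

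Mir296-3p varied least among the arms read in every library. It was at 456 and 434 RPM in E14 mPGCLCs, 355 and 301 in E14 non-PGCLCs, 343 and 300.4 in BG5 mPGCLCs, 537 and 493 in BG5 non-PGCLCs, and 399.7 and 435 in SGET non-PGCLCs. Its fitted change between cell types was 0.26 ± 0.41 in E14 (adjusted p = 0.969) and 0.01 ± 0.41 in BG5 (adjusted p = 1), and the latter was -0.68 ± 0.53 (adjusted p = 0.468) with total reads as the scale. Mir296-5p lay between 62.9 and 221 RPM, and neither Mir296 arm passed the threshold in any of the 7 comparisons.

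Mir675, cut from the H19 RNA, was read in 4 of the 10 libraries. Mir675-5p had 224 reads (15.5 RPM) in BG5 non-PGCLC replicate 2 and 22 reads (2.66 RPM) in E14 mPGCLC replicate 1. Mir675-3p had 124 reads (9.61 RPM) in E14 non-PGCLC replicate 2 and 27 reads (2.64 RPM) in BG5 mPGCLC replicate 2. Most reads in 2 of these libraries ended in a U that does not match the hairpin (98.7% in BG5 non-PGCLC replicate 2 and 99.2% in E14 non-PGCLC replicate 2), so with an exact match over the whole read the 224 reads became 3 and the 124 became 0. The other 2 libraries kept 21 of 22 and 27 of 27 reads. In each of the 4 libraries 95.5% to 100% of the arm's reads were 1 sequence, and the E14 mPGCLC sequence began 7 nt upstream of the listed 5′ end. The Mir675-3p reads began at hairpin base 50, where the listed arm begins at base 49. Mir298-3p had 64 reads, 98.4% of them 1 sequence, in E14 non-PGCLC replicate 1 and 0 elsewhere. They began at base 52, against 51 for the listed arm. The reads of both 3p arms thus have another seed than the listed one. A library with 0 reads allows a level of up to 0.208 to 0.404 RPM (3 reads), which covers counting error only, since the reads carry PCR copies. No group held either Mir675 arm in both replicates, so no fold is given.

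Fragments of the host transcripts outside the hairpins gave a second view of the loci. These are reads of 20 nt or longer that matched a host transcript exactly in sense and no transcript of another gene, with the Igf2 and Gm49394 transcripts taken as 1 locus. For Igf2 they were at 40.1 and 51.9 RPM in BG5 non-PGCLCs and at most 3.26 RPM in each other library. That 3.26 RPM was 27 reads of 1 sequence in E14 mPGCLC replicate 1, above the E14 non-PGCLC libraries at 1.21 and 0.155 RPM. Within E14 the Igf2 fragments thus did not follow the order of the Mir483 arms. Among reads of 25 nt or longer, the BG5 non-PGCLC values were 23.7 and 6.44 RPM. For H19 they were at 49.9 and 43.3 RPM in BG5 non-PGCLCs, 40.8 and 27.7 in E14 non-PGCLCs, 0 and 7.71 in E14 mPGCLCs, 1.70 and 5.87 in BG5 mPGCLCs, and 0.208 and 0.102 in SGET non-PGCLCs. Both non-PGCLC groups of E14 and BG5 were thus above all mPGCLC libraries for H19, while SGET non-PGCLCs were not. At 25 nt or longer, H19 was at 48.6 and 15.7 RPM in BG5 non-PGCLCs and 23.7 and 26.1 in E14 non-PGCLCs, so these groups then overlapped. For Mest they were at 19.7 and 0.900 RPM in BG5 non-PGCLCs and at most 0.233 RPM elsewhere. Gnas fragments reached at most 3.76 RPM, in 3 libraries, and no Nespas fragment was read in any library. The fragments came from 1 to 14 distinct sequences a library and are given without a test.

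**Figure D3:**
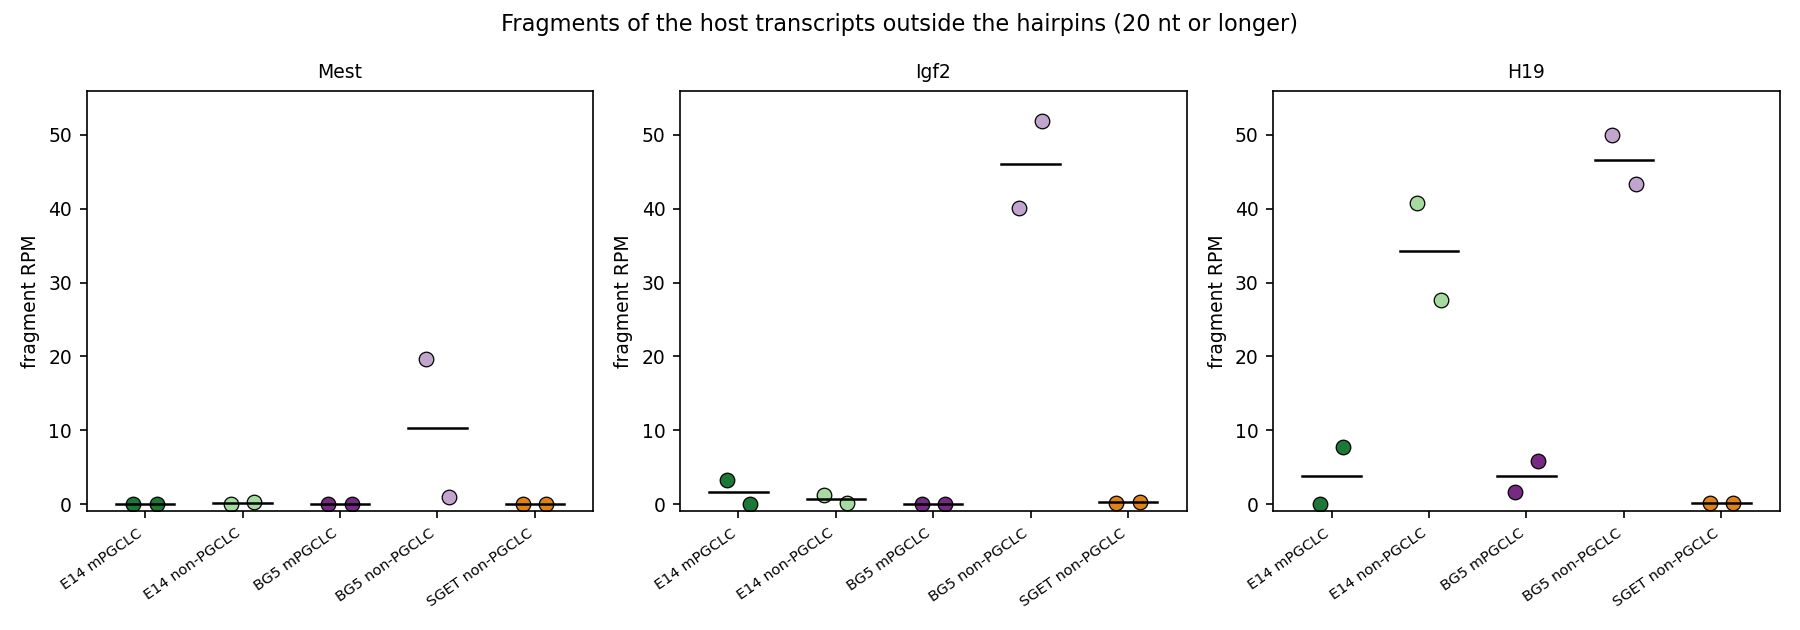
RPM of reads of 20 nt or longer from Mest, Igf2 and H19 transcripts outside the hairpins, by group, with 1 point per library and a line at the mean of the 2 libraries. Igf2 fragments stand at 40.1 and 51.9 RPM in BG5 non-PGCLCs and near 0 elsewhere, whereas H19 fragments are also present in E14 non-PGCLCs, at 40.8 and 27.7 RPM.

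Which strand of a hairpin was kept, and where it was cut, was compared between 4 mPGCLC and 4 non-PGCLC libraries of E14 and BG5. Of 35 possible measures, 25 had at least 20 reads in each of the 8 libraries, and each was tested with a two-sided exact permutation test over 70 arrangements, whose smallest p is 0.0286. The libraries were rearranged freely across E14 and BG5, so the test takes no account of line. With adjustment over the 25, 0 passed, but a single measure at the smallest p could not have passed it, so these tests say little about a lack of difference. The 25 included 4 shares of the 5p arm, which are ratios of the read levels used to describe the hairpins, so these are given below without a test. Of the other 21 measures (5′ ends, 3′ ends and lengths), 3 had an unadjusted p at the smallest value, with an adjusted p of 0.179 over the 25 and 0.2 over the 21.

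The 5p share of Mir335 reads was 15.9% ± 5.85 (SD, n = 4) in mPGCLCs and 26.9% ± 2.71 (SD, n = 4) in non-PGCLCs. It was lower in mPGCLCs by 14.1 percentage points within E14 (10.2% and 11.6% against 23.5% and 26.4%) and by 7.82 within BG5 (20.2% and 21.7% against 27.5% and 30.0%). The cell types did not overlap within or across the lines. SGET non-PGCLCs were at 10.4% and 14.8%, within the mPGCLC range. The 5p share of Mir483 overlapped between cell types, at 53.5% to 84.3% in mPGCLCs and 57.0% to 68.5% in non-PGCLCs of E14 and BG5. SGET non-PGCLCs were at 63.5% and 40.6%, so the 3p arm had more reads in SGET replicate 2 (404 against 276).

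The 5′ end sets the seed, so its position changes which mRNAs an arm can pair with. Mir335-5p, Mir296-5p and Mir298-5p began at the RefSeq 5′ end in 96.5%, 97.1% and 94.2% of their reads on average over the libraries. Mir483-3p began 1 nt downstream of it in 65.6% of reads on average (range 23.3% to 100%) and at the RefSeq 5′ end in 34.3%, Mir296-3p began 1 nt downstream in 33.9% (13.2% to 51.5%), Mir483-5p began 1 nt downstream in 12.7% (0% to 29.9%), and Mir335-3p began 1 nt upstream in 17.7% (10.3% to 23.8%). The shifted forms are shown here because each has another seed (capitals), read from the hairpin and drawn to 22 nt.
Mir483-3p, RefSeq 5′ end: uCACUCCUccccucccgucuug
Mir483-3p, 1 nt downstream: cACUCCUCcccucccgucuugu
Mir483-5p, 1 nt downstream: aGACGGGAgaagagaagggagu
Mir296-3p, 1 nt downstream: aGGGUUGGguggaggcucuccu
Mir335-3p, 1 nt upstream: gUUUUUCAuuauugcuccugac
The seeds of the shifted Mir483-3p, Mir483-5p and Mir335-3p forms matched 0 entries of the RefSeq mature list, and that of the shifted Mir296-3p form matched 1.

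The shifted Mir483-3p end made up 85.3% ± 11.4 (SD, n = 4) of the arm's reads in mPGCLCs and 60.8% ± 6.87 (SD, n = 4) in non-PGCLCs (exact permutation p = 0.0286, adjusted p = 0.179). In E14 it was at 88.1% and 100% in mPGCLCs against 66.5% and 66.0% in non-PGCLCs, and in BG5 at 78.7% and 74.3% against 52.0% and 58.5%. It was thus higher in mPGCLCs in both lines, by 27.8 and 21.2 percentage points, but the library at 100% rests on 94 reads. SGET non-PGCLCs were at 23.3% and 48.3%. The mean length of Mir483-3p reads was 22.1 nt ± 0.228 in mPGCLCs and 22.4 nt ± 0.0290 in non-PGCLCs, and that of Mir296-3p 21.9 nt ± 0.246 and 22.4 nt ± 0.391 (SD, n = 4, exact permutation p = 0.0286 and adjusted p = 0.179 for each). For Mir296-3p the difference was -0.073 nt within E14 and -0.947 nt within BG5.

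**Figure D4:**
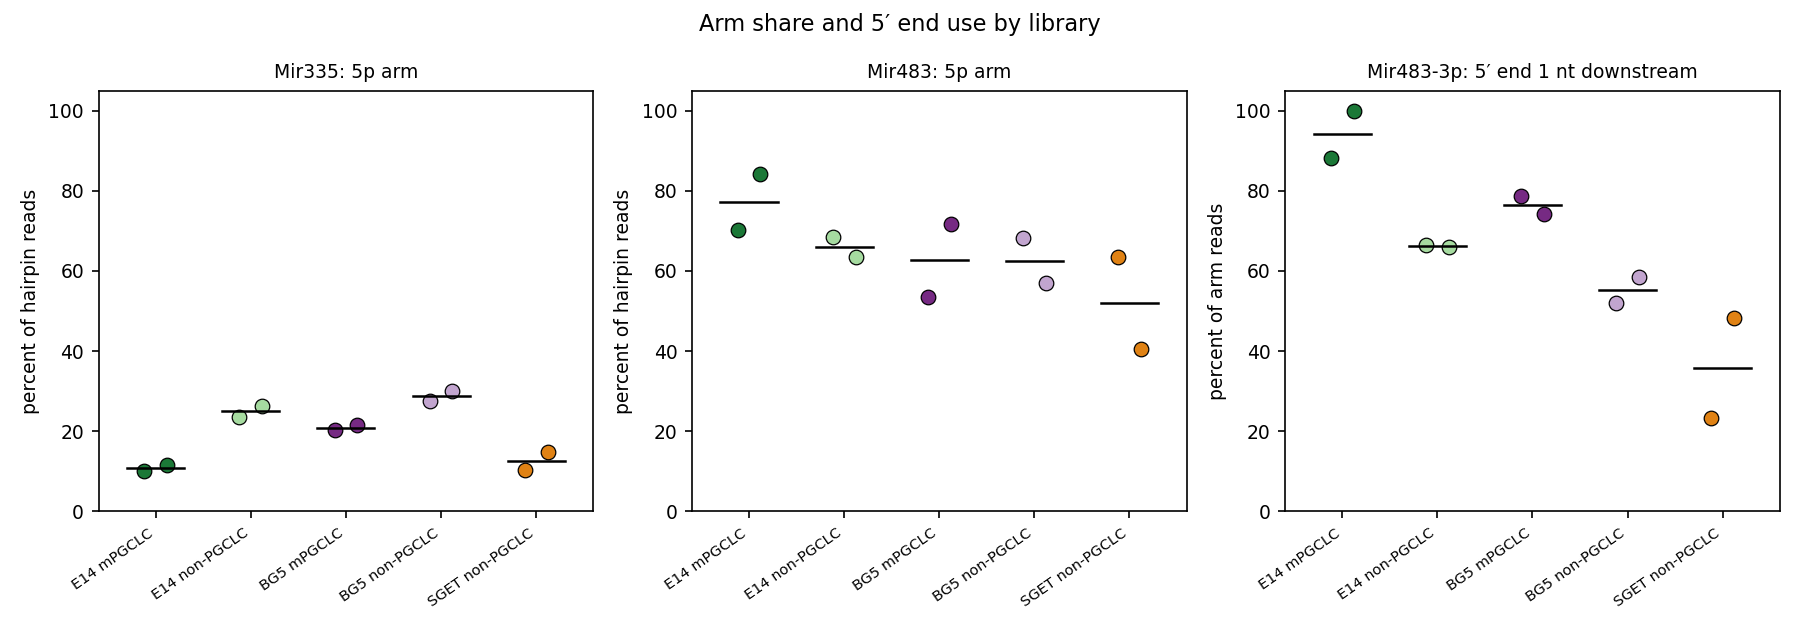
Percent of Mir335 and of Mir483 reads from the 5p arm, and percent of Mir483-3p reads that begin 1 nt downstream of the RefSeq 5′ end, by group, with 1 point per library and a line at the mean of the 2 libraries. The Mir335 5p share lies at 10.2% to 21.7% in mPGCLCs and 23.5% to 30.0% in E14 and BG5 non-PGCLCs, and the Mir483 5p share overlaps.

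At the 3′ end, the share of reads whose last base did not match the hairpin differed widely between arms. It was 1.61% ± 3.01 (SD, n = 4) of Mir335-5p reads in mPGCLCs and 1.56% ± 1.70 in non-PGCLCs, against 52.7% ± 18.9 and 49.9% ± 6.21 of Mir296-3p reads and 24.7% ± 6.11 and 30.9% ± 5.81 of Mir298-5p reads. For Mir483-3p it was 5.64% ± 6.66 in mPGCLCs and 17.1% ± 3.84 in non-PGCLCs (SD, n = 4, exact permutation p = 0.0857, adjusted p = 0.429), with a difference of -13.03 percentage points within E14 and -9.95 within BG5. None of the 7 arms passed the test between cell types for this share, with adjusted p from 0.429 to 1. For Mir296-3p the unmatched last base was A in 20.8% to 55.8% of reads and U in 2.52% to 29.1%. The 4 most frequent Mir296-3p reads show this, with bases that do not match the hairpin in capitals.
Mir296-3p read, 11.6% of reads: gaggguuggguggaggcucu
Mir296-3p read, 8.84% of reads: gaggguuggguggaggcucuccAU
Mir296-3p read, 8.59% of reads: gaggguuggguggaggcucuccA
Mir296-3p read, 6.47% of reads: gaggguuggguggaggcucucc
By contrast, the most frequent Mir298-5p read, at 24.9% of reads, was the whole RefSeq arm.

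Across the 10 libraries, the arms outside the 5 hairpins that were most like the highest arm of each locus were listed by Pearson's r of log2(RPM + 0.5), as a description. The libraries share group and line, and each r below was lower when the 2 libraries farthest from the median were left out. For Mir335-3p they were Mir501-3p (r = 0.972, 0.693 without the 2 libraries), Mir503-3p (0.970 and 0.542) and Mir322-3p (0.964 and 0.817). For Mir483-5p they were Mir412-3p (0.941 and 0.831), Mir503-5p (0.937 and 0.807) and Mir28a-3p (0.912 and 0.810). For Mir298-5p they were Mir30d-5p (0.948 and 0.921), Mir423-3p (0.880 and 0.758) and the arm shared by Mir24-1 and Mir24-2 (0.857 and 0.748). No Mir675 arm reached the mean of 5 RPM set for this list. Within the set, Mir335-3p had r = 0.968 with Mir335-5p (0.921 without the 2 libraries), and Mir483-5p had r = 0.961 with Mir483-3p (0.883) and 0.944 with Mir335-5p (0.809), each above the lowest r listed for that arm. Between the Mest and Igf2 loci, r ran from 0.905 (0.707) for Mir335-3p with Mir483-5p to 0.969 (0.916) for Mir335-5p with Mir483-3p. At Gnas, the 2 arms of Mir296 had r = 0.706 (0.493). Mir298-5p had r = 0.575 (0.408) with Mir296-3p and 0.0647 (-0.0604) with Mir483-5p.

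Levels of marker miRNAs also differed between the groups. The summed level of 4 mesenchymal hairpins (Mir199a-1, Mir199a-2, Mir199b and Mir214) was 19.01 to 23.6 RPM in E14 mPGCLCs, 116 to 144 in BG5 mPGCLCs, 425 to 427 in SGET non-PGCLCs, 1060 to 1242 in E14 non-PGCLCs and 13165 to 22031 in BG5 non-PGCLCs. Reads of Mir199a-1 and Mir199a-2 cannot be told apart, their 3p arm is shared with Mir199b, and the arm that belongs to Mir199b alone (Mir199b-5p) had 0 reads in all mPGCLC libraries. Mir214-3p was read in every library. Like the Mir335 and Mir483 arms, this sum was higher in non-PGCLCs than in mPGCLCs of E14 and BG5. SGET departed from that order, since its mesenchymal sum was above that of both mPGCLC groups while its Mir483-5p level was the lowest of all groups.

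The pluripotent and germ cell list (the Mir290 and Mir302 clusters) had reads for 13 of 14 hairpins. Its Mir292a was matched to Mir292 of the annotation through RefSeq synonyms after the values were seen, and no read was assigned to Mir292b. The summed level was 196613 to 224377 RPM in E14 mPGCLCs, 145906 to 161308 in SGET non-PGCLCs, 93596 to 135178 in E14 non-PGCLCs, 53351 to 76281 in BG5 mPGCLCs and 8199 to 9412 in BG5 non-PGCLCs. Mir292 alone gave 136640 to 168594 RPM in E14 mPGCLCs and 5392 to 5644 in BG5 non-PGCLCs. SGET non-PGCLCs lay between E14 mPGCLCs and E14 non-PGCLCs on this list. The sum is nearly all from the Mir290 to Mir295 cluster. The Mir302 and Mir367 cluster had another order, at 4878 to 5088 RPM in BG5 mPGCLCs, 332 to 443 in E14 mPGCLCs, 389 to 438 in E14 non-PGCLCs, 354 to 396 in BG5 non-PGCLCs and 75.6 to 171 in SGET non-PGCLCs.

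The 5 epithelial hairpins (the Mir200 family) were higher in mPGCLCs, with summed levels of 1901 to 1984 RPM against 1114 to 1133 in E14 and 3172 to 4337 against 1386 to 1399 in BG5, and SGET non-PGCLCs held 2693 to 3031. Blood markers summed to 1.94 to 82.5 RPM over all libraries, with no read assigned to the erythroid Mir144 and Mir451a, muscle markers to 5.97 to 232, the endothelial marker Mir126a to 12.1 to 132, and liver or endoderm markers to 11.4 to 339.6. The part of these marker levels in the results was not tested.

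The imprinted clusters left out of the set gave other counts in the same fit. Of 86 tested arms in the Dlk1-Dio3 cluster, 3 were called lower and 1 higher in E14 mPGCLCs (4.65%, where 2.85% of all arms were called), and 6 lower and 0 higher in BG5 mPGCLCs (6.98%, where 14.1% of all arms were called). Between mPGCLCs, 19 were called higher and 0 lower in BG5 than in E14 (22.1% against 10.2% of all arms). Among non-PGCLCs, 22 were called higher and 0 lower in BG5 than in E14 (25.6% against 15.5%), and 0 higher and 1 lower in SGET than in E14 (1.16% against 4.63%). Of 25 tested arms in the Sfmbt2 cluster, 0 were called between cell types of E14, and 4 were called higher and 0 lower in BG5 mPGCLCs (16% against 14.1%), a share near that of all arms. Between mPGCLC lines 0 were called, 3 were called lower and 0 higher in BG5 than in E14 non-PGCLCs (12% against 15.5%), and 2 higher and 0 lower in SGET than in E14 non-PGCLCs (8% against 4.63%). The difference from the 5 hairpins was not tested.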

How the data were processed

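The deposited files hold raw counts of distinct read sequences, 1 file per library. According to the submitters' processing notes, adapter trimming was done with cutadapt 3.2 and mapping to GRCm38 with STAR 2.5.3a. Random bases in the adapters were cut off without collapsing PCR copies, which therefore remain. Reads from 2 instrument types were joined within libraries, and the share of each is not given in the sources used here. Read lengths ran from 15 to 43 nt.

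Reads were assigned to arms of GENCODE vM21 hairpins. Arms were fitted with edgeR 4.0.16 (R 4.3.3): 5 group means, all 10 libraries, filterByExpr, TMM, library size set to the file total. Each SE was derived from the fitted change and its F statistic. Forms were compared with exact permutation tests. All arms of the 5 hairpins are named. For likeness, arms with a mean of at least 5 RPM were used. The code was tested on simulated data. The members and lists were chosen with earlier results of these data known. Alternatives included DESeq2 1.42.0. Replicates are biological duplicates per the series' design.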

Additional observations from a re-analysis of the deposited data

How the results depend on the processing

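Alternatives were scaling by total reads, DESeq2, no filter on low counts, exact hairpin matches, reads of 20 to 24 nt, only the groups compared, each library left out, and the replicate number as a block. Over 204 refits of the Mir335 and Mir483 arms between cell types, all 204 kept the direction and 199 passed the threshold. For BG5 against E14 non-PGCLCs 68 of 68 passed, and for SGET against E14 non-PGCLCs 62 of 68. With duplicates, each lone library left in a group was assumed to vary like the other groups.

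The count of arms called for the interaction was 1 with total reads, DESeq2, reads of 20 to 24 nt or the replicate block, and 0 to 1 over the libraries left out. That for mPGCLCs between lines was 1 with only those groups and 1 to 3 over the libraries left out. That for SGET against E14 non-PGCLCs was 3 with only those groups and 3 to 5 over the libraries left out.

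Same-numbered samples did not deviate together (r = -0.0511 in E14 and 0.0187 in BG5 over 561 arms). Such an r includes arms with few reads and cannot show whether same-numbered samples came from the same embryoid bodies. The block gave an adjusted p of 0.0337 for the Mir335-3p interaction and 0.00586 for Mir483-5p between mPGCLC lines, and 0 measures of forms passed a sign-flip test, whose smallest p is 0.125.

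Signs changed only for values that passed no test under any setting run. Mir298-5p in E14 was -0.024 with DESeq2, -0.0054 with only the groups compared and -0.015 to 0.177 over the libraries left out. Mir298-5p in BG5 was -0.71 with total reads, -0.20 with DESeq2, -0.0045 without the filter, -0.032 with exact matches and -0.053 to 0.32 over the libraries left out. Mir296-3p was -0.46 in E14 with exact matches. In BG5 it was -0.68 with total reads, -0.20 with DESeq2, -0.0021 without the filter, -0.24 with reads of 20 to 24 nt and -0.18 to 0.257 over the libraries left out. The Mir483-3p interaction was 0.044 with the replicate block, 0.049 with only the groups compared and -0.86 to 1.22 over the libraries left out. The cause was not tested.

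Over all arms, DESeq2 called 55 against 16 with edgeR between cell types of E14, 121 against 79 in BG5, 143 against 83 over both lines, 76 against 32 for the interaction, 103 against 57 between mPGCLC lines, 149 against 87 for BG5 and 76 against 26 for SGET against E14 non-PGCLCs. With only the groups compared the counts were 8 for E14 and 9 for SGET against E14 non-PGCLCs, total reads gave 8 for E14, and the replicate block gave 27 for E14.

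The 2 arms higher in both E14 mPGCLC libraries than in both E14 non-PGCLC libraries (Mir298-5p and Mir296-3p) became 0 when levels were scaled to miRNA reads and 1 with exact matches. Fragments of 25 nt or longer had a mean of 15.1 RPM for Igf2 and 32.1 RPM for H19 in BG5 non-PGCLCs, against 46.0 and 46.6 RPM at 20 nt. Mir675 and Mir298-3p rest on few reads, nearly all of 1 sequence a library, and Mir483-3p in E14 mPGCLCs on 94 to 337 reads. Chosen after seeing the data, leaving the 5p shares out of the measures of forms again gave 0 calls.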
